A study of Mus musculus with 14 samples.

Results

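DNA and histone modifiers are the enzymes that write or erase chemical marks on DNA and on the histone proteins it is wound around. The 41 genes described here were chosen by name, not by a threshold on their values, as enzymes of marks discussed in innate memory. They were 3 DNA methyltransferases, 3 DNA demethylases, 12 genes of histone H3 lysine 4 (H3K4) methylation, 6 of H3K9, 5 of H3K27 and 2 of H3K36 methylation, and 10 of histone acetylation, out of 17890 genes in the table. Every one of the 41 was found by symbol and passed the filter on low counts, the lowest gene total in any library being 99.8 estimated counts.

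Innate memory, or trained immunity, is the lasting change in how macrophages and their progenitors respond after an earlier exposure, and it is carried in part by chromatin. H3K4 methylation and histone acetylation are known for marking active promoters and enhancers, while H3K9 and H3K27 methylation and promoter DNA methylation are known for marking silenced ones. A mark stays or goes according to the balance of its writers and erasers and the metabolites they use, so transcript levels are only a part of that balance.

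The libraries were made from cultures labelled as macrophages derived from bone marrow, of male C57BL/6J mice, an inbred strain, 8 weeks old at the start. In the diabetic group, streptozotocin, a toxin of pancreatic beta cells, was injected intraperitoneally at 42 to 45 mg/kg a day on 5 days, and a non-fasted glucose above 16.9 mmol/L counted as diabetic. The other group were controls, of which the labels name no injection. After 6 weeks of hyperglycaemia in the diabetic mice, marrow progenitors of both groups spent 7 days in medium with 5 mmol/L glucose and M-CSF, the macrophage growth factor, so both groups were harvested at the same glucose. The table holds 4 libraries named D and 4 named M. D was read as diabetic. The labels leave M unexplained, and it was taken by elimination as the healthy group, with the last digit of each name as the replicate number. Directions are therefore stated for D against M, and opposite meanings of the letters would invert them. Streptozotocin and diabetes cannot be told apart here, and the 3 diabetic-trained and 3 untrained samples of a second phase were not analysed here. Whether different libraries stand for different animals is not said in the labels, so p-values measure the spread between these libraries, which may be technical.

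Each library held 19048195 to 20027967 estimated counts. Of 12839 tested genes, 2233 (17.4%) were higher and 2223 (17.3%) lower in D, so a call in either direction was the lot of 34.7% of all genes. The D libraries varied more than the M libraries on the first principal component (64.7% of the variance), where D replicates 1 and 3 were the ends of their group at -16.0 and -54.5 and the M libraries lay between 27.9 and 37.6. Macrophage markers were present at very unequal levels. Lyz2, lysozyme, and Ctsd, a lysosomal protease, were abundant in both groups (8145 ± 1911 and 3457 ± 143 CPM, counts scaled to library size, in D; 4606 ± 303 and 3269 ± 355 in M; SD, n = 4). Csf1r, the M-CSF receptor, was at 209 ± 22.5 CPM in D and 162 ± 9.97 in M, and Itgam, Cd68 and Adgre1 at 2410, 179 and 87.3 in D and 1886, 192 and 46.7 in M. Mertk, Mrc1 and C1qa were the lowest of the 16 macrophage markers (0.739, 2.59 and 2.00 CPM in D, 1.06, 2.05 and 0.723 in M). Neutrophil, B-lineage and erythroid genes were also present. In such mixed bulk samples, fewer cells of a type and less RNA per cell cannot be told apart.

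Of the 41 modifiers, 13 (31.7%) passed the test, against 34.7% of all tested genes. The quasi-likelihood test of edgeR was used, "adjusted p" being its p-value after Benjamini-Hochberg adjustment over all tested genes. Higher in D were 5 members (12.2%, against 17.4% of all genes), namely Kat2b, Setd7, Hdac4, Ep300 and Suz12. Lower were 8 (19.5%, against 17.3%), namely Hdac7, Dnmt3a, Ezh2, Kdm4b, Setd1a, Dnmt1, Ehmt1 and Tet3. The members' share of calls was thus close to that of genes at large, and their changes were smaller, with a median absolute log2 fold change of 0.18 against 0.23 for all tested genes. Among called genes the medians were 0.34 for the members and 0.48 for all. These medians were not matched for level of expression, which was higher for the members, as given below. The CPM of the groups did not overlap for 13 members (31.7%), against 34.7% of all genes. D lay below in 9 (18.4% of all genes did) and above in 4 (16.3%). An unadjusted p under 0.05 in that test was reached by 22 members. The share of all tested genes at that level was not counted, so this number says nothing particular to the members. Of the 23 genes grouped as writers, leaving aside the H3K36 genes, 4 were higher and 5 lower. Of the 16 grouped as erasers 1 was higher and 3 were lower, so neither class as a whole went to 1 side.

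**Figure D1:**
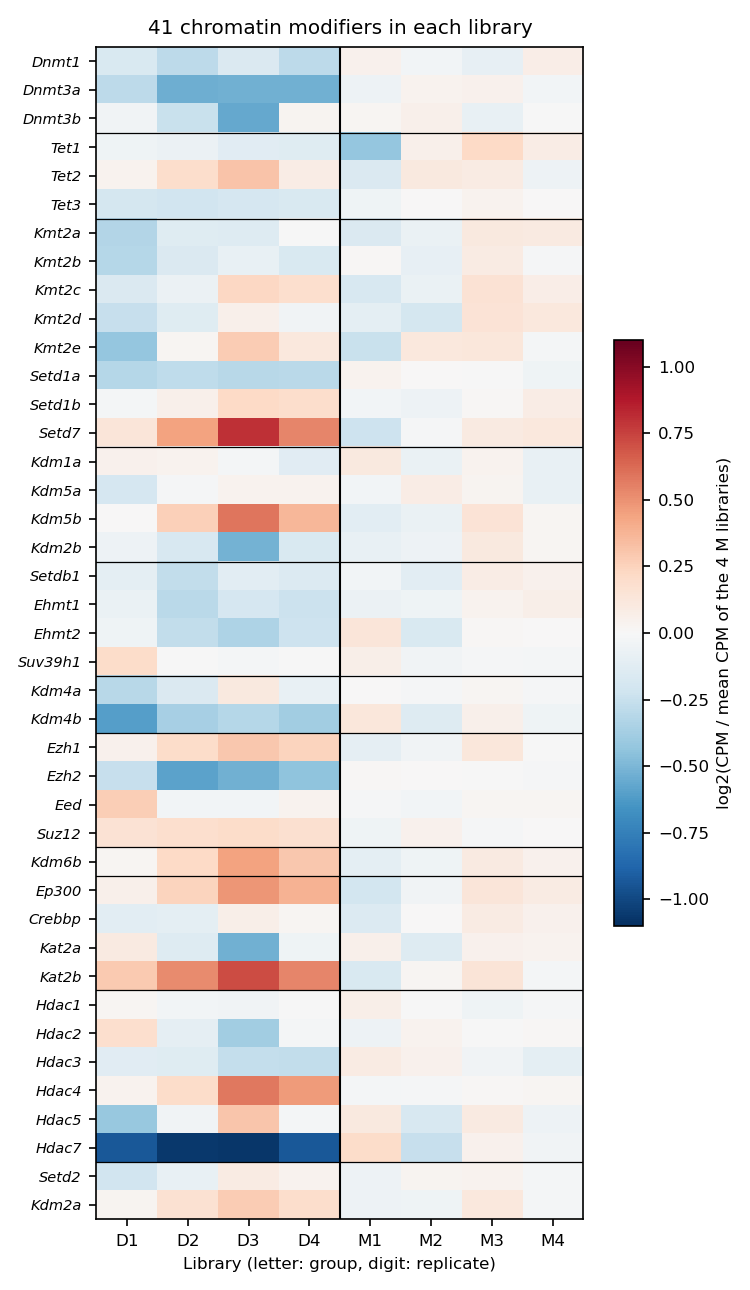
Level of each of the 41 genes (rows, in blocks by mark, writers before erasers) in each of the 8 libraries (columns), as the log2 ratio of its CPM to the mean CPM of the 4 M libraries. Hdac7 is blue in all 4 D libraries (-0.93 to -1.07), while most rows stay pale and D replicates 1 and 3 often have opposite shades.

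The counts moved with the scaling and with single libraries. With library totals in place of the trimmed-mean (TMM) factors, 2 members were higher (11.9% of all genes were) and 15 lower (26.1%), while the median of all genes shifted from -0.03 to -0.14. With DESeq2's size factors 8 were higher (18.8% of all genes) and 7 lower (15.7%). Leaving out D replicate 1 gave 9 higher members (21.95%), and 22.1% of all genes were then higher too. Leaving out D replicate 2, D replicate 3 or M replicate 2 gave 3 (7.32%), where 13.7%, 16.3% and 13.5% of all genes were higher. Leaving out D replicate 4, M replicate 1 or M replicate 4 gave 2 (4.88%), where the shares of all genes were 14.6%, 13.7% and 13.2%. The lower members numbered 5 (12.2%) without D replicate 2 or D replicate 4, where 13.1% and 12.2% of all genes were lower. A block for the replicate number, which the 2 groups share, gave 9 higher (18.8% of all genes) and 9 lower (18.7%). D replicates 1 and 3 were the extremes of the D group in 29 of the 41 members, with replicate 1 the lowest in 23 and replicate 3 the highest in 22. How many of all tested genes had these ends was not counted, so these numbers say nothing particular to the members.

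DNA methylation falls on CpG dinucleotides, so the CpG content of a promoter tells how many sites it offers. RefSeq's GRCm38.p6 promoter table held only 32 of the 41 members, so a check of CpG content over the whole set is void and no comparison with other genes is made. In the 250 bases before the start, those 32 had 2 to 51 CpG. The windows of the member that fell most, Hdac7, and of Setd7, an H3K4 methyltransferase that rose, were picked after their values were seen and are shown as examples of few and more CpG (6 and 17). The examples stand for no rule about direction, since Kat2b, which rose most, also had 6 and Dnmt3a, which fell, had 38. Each lies just before the gene's start (GRCm38.p6), is given 5′ to 3′ on the minus strand, and has each CpG in capitals.
Hdac7 (chr15:97844503-97844752): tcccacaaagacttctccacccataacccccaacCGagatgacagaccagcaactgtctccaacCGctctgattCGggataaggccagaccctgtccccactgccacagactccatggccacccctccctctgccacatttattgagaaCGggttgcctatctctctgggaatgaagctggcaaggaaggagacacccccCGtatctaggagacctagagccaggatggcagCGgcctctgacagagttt
Setd7 (chr3:51560824-51561073): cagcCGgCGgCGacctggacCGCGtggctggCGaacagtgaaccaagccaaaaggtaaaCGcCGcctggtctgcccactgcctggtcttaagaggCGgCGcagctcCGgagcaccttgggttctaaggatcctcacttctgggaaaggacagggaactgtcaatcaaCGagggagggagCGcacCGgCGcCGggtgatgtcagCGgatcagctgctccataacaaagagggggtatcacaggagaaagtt
No DNA methylation was measured, so these sequences say where CpG lie and nothing of their state.

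Of the 3 DNA methyltransferases, 2 were lower in D, Dnmt3a, which sets new methyl groups on cytosine, and Dnmt1, which copies them after replication, while Dnmt3b did not pass. Dnmt3a (gene 13435, chromosome 12, 3801559 to 3914443, GRCm38) had, in the order of the replicates, 56.8, 47.6, 48.0 and 48.0 CPM in D and 66.7, 71.3, 71.4 and 67.6 in M. All D libraries lay below all M libraries, with D replicate 1 the nearest to them. The fall was 1.38-fold (log2 fold change -0.47 ± 0.07 SE, adjusted p = 0.0011). Dnmt1 had 343, 315, 345 and 315 CPM in D and 396, 377, 361 and 404 in M, again without overlap. Its fall was smaller, 1.17-fold (-0.22 ± 0.07, adjusted p = 0.0283), and the call was lost without D replicate 2 (adjusted p = 0.0874), D replicate 4 (0.128), M replicate 1 (0.0636), M replicate 2 (0.0532) or M replicate 4 (0.0876). Dnmt3b, the other de novo enzyme, was at 11.4 ± 2.00 CPM in D and 13 ± 0.54 in M (SD, n = 4), a difference within the spread of D (-0.18 ± 0.13, adjusted p = 0.278).

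Among the ten-eleven translocation enzymes, which oxidize methylcytosine on the way to its removal, Tet3 was lower in D and the other members did not pass. Tet3 had 125, 123, 125 and 127 CPM in D and 138, 143, 146 and 143 in M. The groups were apart and each was narrow, with a 1.14-fold difference (-0.19 ± 0.06, adjusted p = 0.0236). That call was lost without D replicate 2 (adjusted p = 0.0706), D replicate 4 (0.0852), M replicate 2 (0.0505), M replicate 3 (0.0683) or M replicate 4 (0.0614). Tet2, a gene often mutated in clonal blood growth, had 47.5 to 57.4 CPM in D and 41.4 to 49.6 in M (0.16 ± 0.08, adjusted p = 0.159). Tet1 was close to 6 CPM in every library, between 4.89 and 7.61. In TPM, the authors' measure scaled by transcript length, Dnmt1 made up 88.6 ± 1.14% of the summed methyltransferase level in D and 87.5 ± 0.747% in M, and Tet3 65.1 ± 1.92% and 70 ± 1.6% of the summed Tet level (SD, n = 4, described without a test).

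Among the 8 genes grouped here as H3K4 writers, Setd1a was lower and Setd7 higher in D, and the other 6 did not pass. Setd1a, the catalytic subunit of a complex that sets most promoter H3K4 trimethylation, had 66.9, 68.5, 67.4 and 68.0 CPM in D and 85.8, 83.7, 82.9 and 80.9 in M. The D libraries were within 2 CPM of each other and far below M (1.23-fold lower; -0.30 ± 0.05, adjusted p = 0.00253). Setd7, which adds a single methyl group to H3K4 and to many non-histone proteins and is known from studies of cells exposed to high glucose, had 145, 181, 231 and 192 CPM in D and 114, 131, 142 and 143 in M. Every D library was above every M library, but D replicate 1 only by little. The rise was 1.41-fold (0.50 ± 0.13, adjusted p = 0.0139), with a span over single left-out libraries of 0.40 to 0.63. The genes of the Kmt2 family gave no call. Kmt2a, Kmt2b and Kmt2d had log2 fold changes of -0.15, -0.18 and -0.09, Kmt2c and Kmt2e of 0.06 and 0.02, and Setd1b of 0.12, with adjusted p from 0.0702 for Kmt2b to 0.913 for Kmt2e. Kmt2b was called lower with library totals (-0.29, adjusted p = 0.00525), and Kmt2a as well (-0.25, 0.0368).

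None of the 4 genes grouped here as H3K4 erasers passed edgeR's test. However, Kdm5b and Kdm2b had unadjusted p under 0.05 in it (0.0181 and 0.0428), and DESeq2's test called Kdm5b (0.34, DESeq2 adjusted p = 0.0269). Kdm5b, a demethylase of trimethylated H3K4, came nearest, with 66.3, 79.2, 99.5 and 85.1 CPM in D and 61.0, 63.1, 73.6 and 67.1 in M. D replicate 1 lay inside the range of M and the other D libraries above it (0.32 ± 0.11, adjusted p = 0.0517). It was called higher without D replicate 1 (0.43, adjusted p = 0.00405), without M replicate 3 (0.37, 0.0481) and with the replicate block (0.31, 0.0103). Kdm2b, which also recruits Polycomb to CpG islands, had 58.5, 53.7, 42.5 and 54.3 CPM in D and 57.5 to 65.7 in M (-0.22 ± 0.10, adjusted p = 0.0972), and was called lower without D replicate 1 (-0.25, adjusted p = 0.0456). Kdm1a and Kdm5a were at 60.9 ± 3.32 and 96.9 ± 6.89 CPM in D and 61.5 ± 3.86 and 98.8 ± 4.68 in M.

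In H3K9 methylation, the demethylase Kdm4b and the methyltransferase Ehmt1 were lower in D, and the other 4 genes did not pass. Kdm4b, which removes methyl groups from trimethylated H3K9, had 27.3, 32.3, 33.4 and 31.8 CPM in D and 45.3, 37.7, 43.1 and 40.2 in M, without overlap. It was 1.33-fold lower (-0.42 ± 0.09, adjusted p = 0.00473). Its close relative Kdm4a was at 98.6 ± 11.7 CPM in D and 106 ± 1.35 in M (-0.10 ± 0.08, adjusted p = 0.358). Kdm4a was called lower in 4 of 12 other settings of the processing, over which it lay between -0.22 and -0.08. Ehmt1, which partners Ehmt2 in the complex that dimethylates H3K9, had 51.2, 43.9, 47.4 and 45.6 CPM in D and 51.7, 52.2, 55.5 and 56.3 in M. D replicate 1 lay just under the lowest M library, and the fall of 1.15-fold was barely past the threshold (-0.20 ± 0.07, adjusted p = 0.047). It was lost on leaving out any library but D replicate 1, with adjusted p of 0.136 without D replicate 2, 0.0677 without D replicate 3, 0.149 without D replicate 4, and 0.0554, 0.0672, 0.112 and 0.123 without M replicates 1 to 4. It was also lost with the block (0.0555). Ehmt2 moved by a like amount without a call (-0.22 ± 0.08, adjusted p = 0.0688), and was called without D replicate 1 (-0.25, adjusted p = 0.0225), without M replicate 2 (-0.27, 0.0428) and with the block (-0.22, 0.0291). Setdb1, which serves the silencing of retroelements, was at 64.7 ± 3.22 CPM in D and 72.3 ± 4.37 in M (-0.16, adjusted p = 0.0907), and Suv39h1, an enzyme of constitutive heterochromatin, at 80.1 ± 6.04 and 77.6 ± 2.59. Setdb1 was called lower in 5 of the same 12 settings, over which it lay between -0.27 and -0.14.

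**Figure D2:**
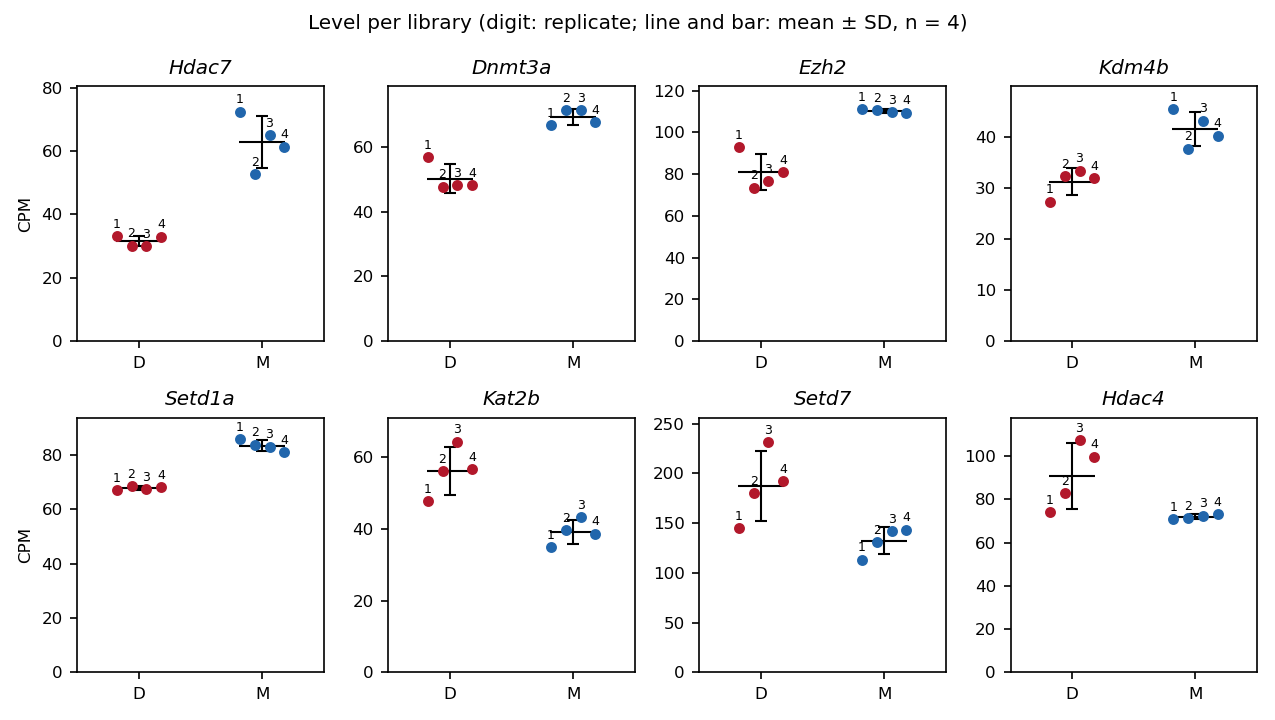
CPM (y axis, from 0) of 8 members in the 4 D and 4 M libraries (points, numbered by replicate), with the mean and SD of each group. Hdac7, Dnmt3a, Ezh2, Kdm4b and Setd1a lie lower in D and Kat2b, Setd7 and Hdac4 higher. D replicates 1 and 3 are the lowest and highest of the D libraries in Kat2b, Setd7, Hdac4 and Kdm4b.

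Polycomb repressive complex 2, which methylates H3K27, changed in its parts in opposite directions. Its main catalytic subunit Ezh2, known for high levels in dividing cells, had 92.8, 73.5, 76.6 and 81.0 CPM in D and 111, 111, 109.7 and 109.5 in M. The M libraries were almost equal and all D libraries lay below them (1.36-fold lower; -0.45 ± 0.08, adjusted p = 0.00178). Suz12, the scaffold subunit, had 172, 175, 178 and 174 CPM in D and 149, 159, 153 and 155 in M, a rise of 1.13-fold (0.18 ± 0.06, adjusted p = 0.0303). That rise was lost with library totals (0.07, adjusted p = 0.306) and without D replicate 2 (0.0734), D replicate 4 (0.0586), M replicate 1 (0.0646), M replicate 3 (0.0771) or M replicate 4 (0.0737). Ezh1, the alternative catalytic subunit of resting cells, had 62.7, 70.1, 74.9 and 71.9 CPM in D and 56.9, 59.4, 66.2 and 60.7 in M (0.20 ± 0.08, adjusted p = 0.0592), with calls without D replicate 1 (0.27, adjusted p = 0.00969), without M replicate 3 (0.24, 0.0468) and with the block (0.20, 0.028). Eed, which binds the finished mark, was at 72.1 ± 7.28 and 68.8 ± 1.31 CPM. The ratio of Ezh2 to Ezh1 in TPM was 2.39, 1.69, 1.65 and 1.83 in D and 3.16, 3.01, 2.69 and 2.93 in M, so no D library reached an M library. The H3K27 demethylase Kdm6b, known for its induction in stimulated macrophages, had 122, 139, 162 and 147 CPM in D and 111, 116, 128 and 124 in M. It did not pass (0.25 ± 0.09, adjusted p = 0.0523), but was called higher without D replicate 1 (0.34, adjusted p = 0.00536) and with the block (0.25, 0.0142).

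The acetylation enzymes held both the largest fall and the largest rise of the 41 genes. Hdac7 (gene 56233, chromosome 15, 97792661 to 97844502), a class IIa histone deacetylase best known in lymphocytes, where it represses genes of other lineages, had 33.0, 30.1, 30.0 and 32.9 CPM in D and 72.4, 52.7, 65.1 and 61.4 in M. The highest D library was far under the lowest M library. It was 2.00-fold lower in D (-1.0 ± 0.10, adjusted p = 6.8e-05), and stayed between -0.92 and -1.07 whichever library was left out. B-lineage markers, as a sum, were also lower in all 4 D libraries (85.5 to 299.8 CPM against 1328 to 1746 in M), and their part in this fall was not tested. Kat2b (gene 18519, chromosome 17, 53566774 to 53672721), an acetyltransferase of H3K9, had 47.6, 55.9, 64.2 and 56.6 CPM in D and 34.9, 39.6, 43.2 and 38.6 in M, a rise of 1.43-fold (0.52 ± 0.10, adjusted p = 0.00287). Its relative Kat2a was at 51.1 ± 8.96 in D and 56.2 ± 3.61 in M, with D replicate 3 lowest at 38.9 (-0.14 ± 0.12, adjusted p = 0.388). The difference between these paralogues was not tested, and the ratio of Kat2b to Kat2a in TPM was 0.585 to 1.21 in D and 0.437 to 0.563 in M.

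Ep300, the coactivator that acetylates H3K27 at enhancers, had 236, 270, 319 and 297 CPM in D and 199, 221, 249 and 242 in M. Here the groups overlapped at D replicate 1, and the rise of 1.23-fold was close to the threshold (0.30 ± 0.10, adjusted p = 0.0454). It was lost with library totals (0.19, adjusted p = 0.127) and without D replicate 2 (0.073), D replicate 3 (0.0786), D replicate 4 (0.0989), M replicate 1 (0.119), M replicate 2 (0.106) or M replicate 4 (0.0657). Crebbp, its close homologue, was at 98.8 ± 6.17 CPM in D and 101 ± 7.09 in M (-0.03 ± 0.07, adjusted p = 0.746). Hdac4, another class IIa deacetylase, had 74.0, 82.9, 107 and 99.8 CPM in D and 70.8, 71.2, 72.5 and 73.2 in M, all D above all M, though D replicate 1 by under 1 CPM. Its rise was 1.27-fold (0.34 ± 0.11, adjusted p = 0.0297). It was lost with library totals (0.23, adjusted p = 0.0671) and without D replicate 3 (0.0504), D replicate 4 (0.0775) or M replicates 1 to 4 (0.0705, 0.0709, 0.0609 and 0.0611).

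Hdac5, the third class IIa member, was at 93.7 ± 18.8 CPM in D and 95.0 ± 8.70 in M. Hdac7 thus made up 22.8%, 17.8%, 14.5% and 18.3% of the summed TPM of the 3 class IIa genes in D and 34.0%, 30.1%, 31.1% and 31.7% in M, with no overlap. Of the class I deacetylases, the catalytic cores of corepressor complexes, Hdac3 had 55.4, 55.0, 50.1 and 49.97 CPM in D and 64.3, 62.2, 58.7 and 56.0 in M. The groups did not overlap but the adjusted p of 0.0507 missed the threshold (-0.20 ± 0.07). It was called lower without M replicate 4 (-0.23, adjusted p = 0.0494), with the block (-0.20, 0.0296) and with library totals (-0.30, 0.0149). Hdac1 and Hdac2 were at 118 ± 2.47 and 75.4 ± 12.1 CPM in D and 120 ± 3.74 and 79 ± 2.1 in M, without a call. For H3K36, the methyltransferase Setd2 was at 163 ± 15.2 and 167 ± 5.14 CPM. The demethylase Kdm2a had 156, 171, 184 and 174 CPM in D and 147, 147, 165 and 150 in M (0.17 ± 0.07, adjusted p = 0.093), with calls without D replicate 1 (0.24, adjusted p = 0.0183) and with the block (0.17, 0.0461).

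**Figure D3:**
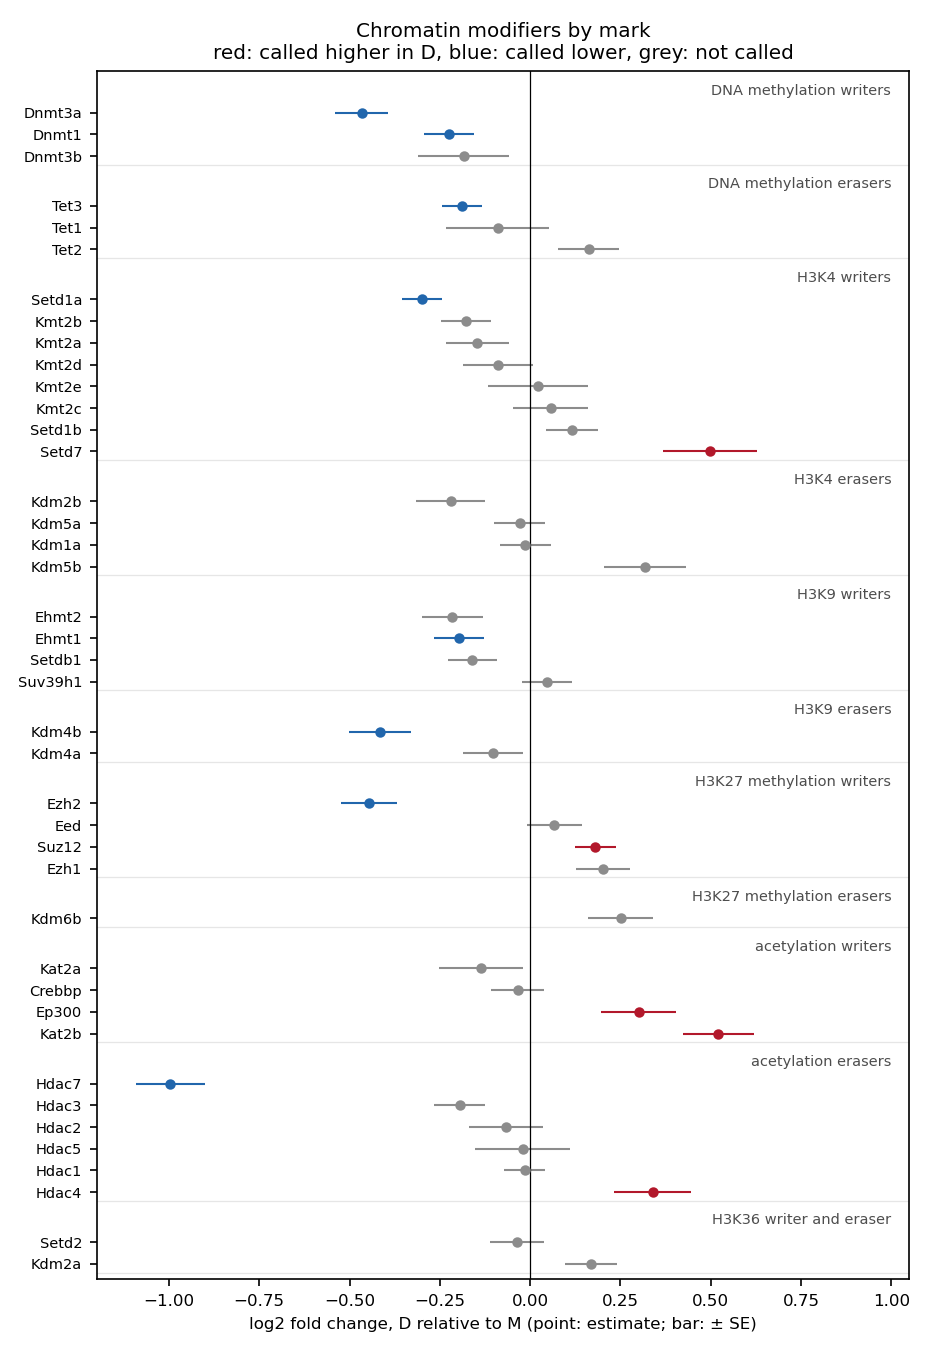
Log2 fold change, D relative to M, of the 41 genes (points, bars of 1 SE) in blocks by mark, coloured by call. Hdac7 at -1.0 stands alone on the left and Kat2b at 0.52 and Setd7 at 0.50 are the farthest right, while the 28 members not called lie between -0.22 and 0.32.

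Levels were compared between genes per length, in TPM. The median over the 8 libraries was 29.0 TPM for the members and 18.99 for all tested genes. Dnmt1 was the most abundant member in M (141 ± 6.24) and was followed by Hdac1 (119 ± 1.16), a difference larger than the spread, while in D the same genes were at 113 ± 6.18 and 110 ± 5.82 and did not differ beyond it. Ezh2 came next in M (82.0 ± 1.34), ahead of Hdac2 (77.0 ± 3.39), Suz12 (68.2 ± 2.91) and Eed (65.3 ± 2.32). In D, Ezh2 (56.6 ± 7.27) lay under Suz12 (72.5 ± 1.91), and its distance to Hdac2 (69.3 ± 13.1), Eed (64.3 ± 8.17) and Ep300 (58.4 ± 5.31) was within the spread. Tet1 was lowest, at 0.780 ± 0.0469 in D and 0.885 ± 0.171 in M, with Dnmt3b (5.14 ± 1.02 and 6.09 ± 0.200) next. Hdac7 fell from 30.1 ± 3.51 in M, above the members' median, to 14.2 ± 1.16 in D.

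**Figure D4:**
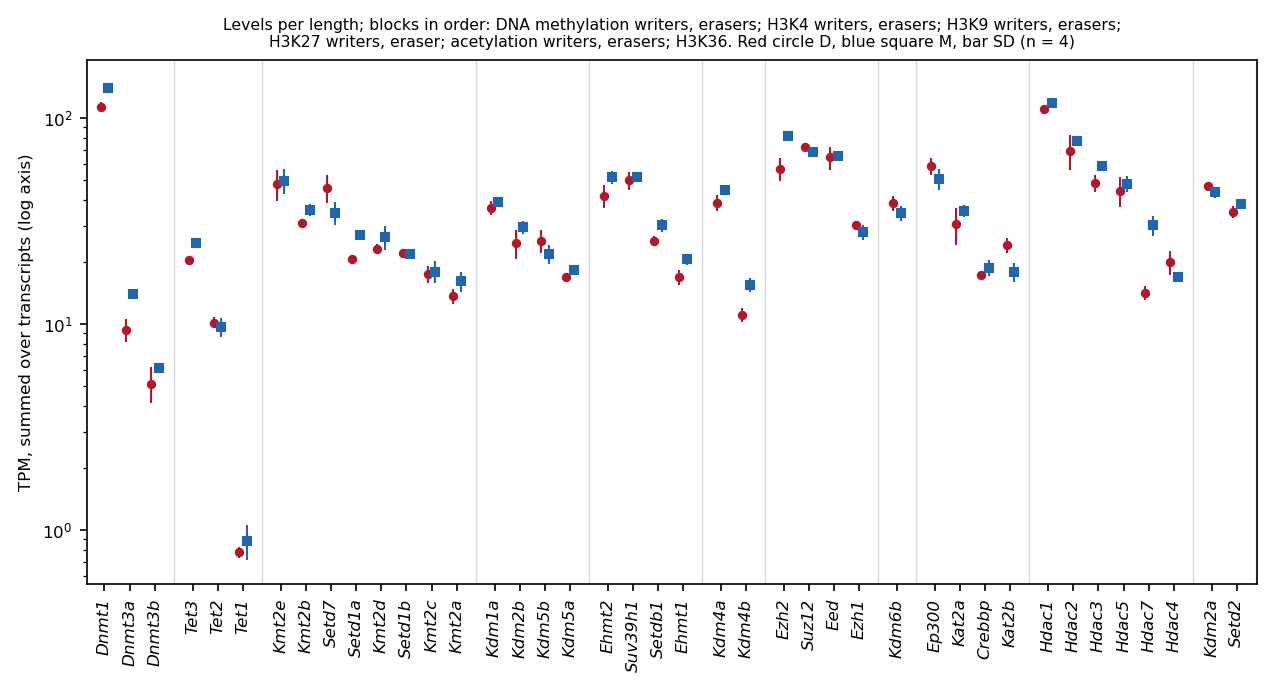
TPM summed over transcripts (log axis) of the 41 genes in blocks by mark, D as red circles and M as blue squares with the SD of 4 libraries. Levels span from under 1 TPM for Tet1 to 141 TPM for Dnmt1 in M, and only Hdac7 shows a gap between the groups that is wide on this scale.

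Most members are listed with several transcripts, and their estimated split was unsteady. Ezh1's 2 transcripts took 0% and 100% in D replicate 1 and 100% and 0% in D replicates 3 and 4. Among 32 members with at least 2 transcripts of enough share, the share of the most abundant transcript differed at an unadjusted p of 0.0286 in 3 (exact two-sided permutation test, 70 regroupings, the smallest p it allows). These were Kdm1a (80.7%, 67.8%, 72.0% and 67.2% in D, 45.4%, 58.8%, 63.7% and 60.0% in M), Kdm2b (mean 70.9% and 53.0%) and Tet3 (81.5% and 72.0%). None passed after adjustment over the 32 (adjusted p = 0.305 by that permutation test), which a few members at the smallest possible p could not have done. With the most abundant transcript in place of the sum, 1 member was higher (8.72% of all genes) and 3 were lower (7.73%), and Dnmt3a (-0.55, adjusted p = 0.0636), Kdm4b (-0.15, 0.683) and Setd7 (0.49, 0.0559) were among the calls lost. Setd7 is listed with only 1 transcript, so its own counts were the same. Its call was lost as the fit and adjustment over all genes were redone. Hdac7 overlaps another tested gene, Slc48a1, which was also lower (-0.47, adjusted p = 0.0253). The uncalled Kmt2e and Setdb1 overlap genes that were higher, Srpk2 (0.39, adjusted p = 0.00971) and Cers2 (0.20, 0.0245). Kdm1a and Kdm5a overlap genes that were not called. The sources used here do not say whether counting used strand, so reads of a shared stretch could have been given to either gene of a pair.

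Partners of the same marks were read from lists of genes that are not members, and their counts stand against 17.4% higher and 17.3% lower among all tested genes. Of 12 tested partners of DNA methylation, 2 were higher and 3 lower. The methyl-CpG binder Mbd1 was 1.32-fold lower (-0.40, adjusted p = 0.000593), Mbd2, another such binder, was higher (0.34, 0.0103), and Gadd45a, which is linked to demethylation, was higher (0.38, 0.0105). In the H3K4 list 3 of 13 were lower and the other 10 were not called. Kdm1b, an H3K4 demethylase, was 1.76-fold lower (-0.82, adjusted p = 0.000137), and Cxxc1, the CpG-binding subunit that works with Setd1a, was lower too (-0.40, 0.00226), as was Hcfc1 (-0.26, 0.0165). Of 14 tested H3K9 genes, 2 were higher and 2 lower, with Cbx1, a heterochromatin protein, at -0.50 (adjusted p = 0.000379), the demethylase Phf2 at -0.45 (0.00231) and the demethylase Kdm7a at 0.62 (0.00661). Polycomb partners gave 1 higher, Phf1 (0.44, adjusted p = 0.0118), and 2 lower, Cbx7 (-0.38, 0.0223) and Ring1 (-0.35, 0.0257), of 16.

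Of 22 further acetylation genes, 7 were lower and 15 not called. The deacetylases Hdac9 and Hdac11 changed by more than any of the 41 members, and Hdac10 by more than any but Hdac7. Hdac9, the remaining class IIa enzyme, fell from 22.7 ± 2.13 to 8.91 ± 0.879 CPM, 2.55-fold (-1.35, adjusted p = 2.14e-05). Hdac10 was 1.69-fold lower (-0.76, adjusted p = 0.00132), and Hdac11 fell 3.48-fold from a low 3.99 ± 0.560 CPM (-1.80, 0.000907). In the list of H3K36, H3K79 and H4K20 enzymes 3 of 9 were higher, Nsd3 (0.46, adjusted p = 0.00903), Kmt5a (0.24, 0.0118) and Nsd2 (0.22, 0.0259). Of 12 tested genes that supply cofactors to these enzymes, 2 were higher (16.7%, against 17.4% of all tested genes) and the other 10 were not called. Among the higher was Idh1 (0.31, adjusted p = 0.0131). Over the 86 tested chromatin partners of all marks, 8 were higher (9.30%, against 17.4% of all tested genes) and 17 lower (19.8%, against 17.3%).

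Marker genes of other cells moved with these results, and their part in them was not tested. Their counts, and those of the cell cycle genes, stand against 17.4% higher and 17.3% lower among all tested genes. Of 15 B-lineage markers, 12 were lower in D, with the summed levels given above and a median log2 fold change of -2.87. D replicate 3 was the lowest D library and M replicate 2 the lowest M library both in the B-lineage sum (85.5 and 1328 CPM) and in Hdac7 (30.01 and 52.7 CPM). The highest libraries were not the same. They were D replicate 4 and M replicate 3 in the B-lineage sum (299.8 and 1746 CPM). In Hdac7 they were D replicate 1 and M replicate 1 (33.0 and 72.4 CPM). D replicate 2 was at 198.5 CPM in the sum, with Hdac7 (30.13 CPM) close to that of D replicate 3. Of 15 neutrophil markers, 11 were higher, with a sum of 45536 to 70486 CPM in D and 39328 to 41226 in M. In the D group the sum was lowest in replicate 1 and highest in replicate 3. Kat2b, Setd7, Hdac4 and Ep300, which rose, had the same ends. So did Kdm4b, which fell (27.3 and 33.4 CPM), and uncalled members such as Kdm5b, Kdm6b, Kdm4a, Crebbp, Hdac5 and Setd2. Of 16 macrophage markers, 10 were higher (13011 to 18180 CPM in D, 9627 to 10992 in M). Of 20 cell cycle genes, 10 were higher and 10 not called. Among the higher were Ccna2 at 0.47, Ccnb1 at 0.41, Bub1 at 0.53 and Mcm4 at 0.17. Among those not called were Mcm2, Mcm3, Mcm5, Mcm6 and Mcm7, between -0.13 and -0.01, and Pcna at 0.09. Ezh2 and Dnmt1, whose levels are known to go with division, were lower. Their relation to these cell cycle genes was not tested.

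**Figure D5:**
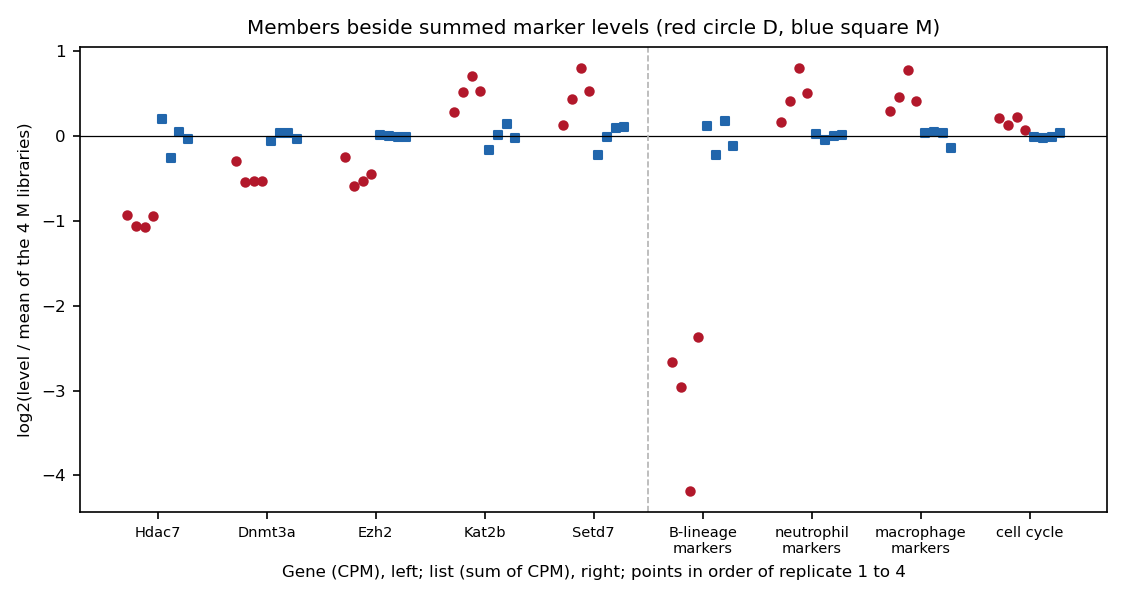
Level of 5 members (CPM, left) and of 4 gene lists (summed CPM, right) in each library as the log2 ratio to the mean of the M libraries, points in order of replicate. B-lineage markers lie between -2.37 and -4.18 in D and Hdac7 between -0.93 and -1.07, while neutrophil and macrophage markers, like Kat2b and Setd7, are lowest in D replicate 1 and highest in D replicate 3 of the D group.

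Further lists of cells in the culture were counted in the same way, beside 17.4% higher and 17.3% lower among all tested genes. Basophil and mast cell markers were higher in 7 of 8 (1056 to 1430 CPM in D, 545 to 686 in M), and T and NK markers in 5 of 8 tested, with 1 lower (73.1 to 83.2 CPM in D, 57.8 to 62.8 in M). Dendritic cell markers were lower in 4 of 8 (88.4 to 171 CPM in D, 210.4 to 219 in M) and stromal markers in 3 of 4 tested. The erythroid sums overlapped (1325 to 6848 CPM in D, 4513 to 7916 in M), and none of the 8 erythroid markers was called. Of 4 tested osteoclast markers 1 was lower and 1 higher, the higher being Mmp9, which was also counted among the neutrophil markers.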

How the data were processed

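Messenger RNA libraries of 8 samples of the first phase were analysed. Per the labels' design text, oligo(dT) capture was followed by sequencing as DNA nanoballs, read filtering with SOAPnuke 1.5.6 and alignment to mm10 by software spelled HISTA2 2.1.0. The sources used here do not give the quantifier, the annotation release or the use of strand. Per the file headers, what the authors deposited are estimated counts of RefSeq transcripts without normalization. Also deposited were TPM, which the authors scaled by length to equal totals per library, and the authors' FPKM, scaled by length and depth. The deposited signal of normalized counts was checked to be the rounded-up estimated counts over a library factor of 0.953 to 1.063 (100% of values within a tolerance of 0.001). It was not used further, nor were 8 columns of group means.

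Estimated counts of 60072 transcripts were added up by gene and then rounded. Of 17890 genes, 17836 had a symbol in RefSeq's GRCm38 table. Genes were filtered with edgeR's filterByExpr (minimum count 10, minimum total 15), which left 12839. edgeR 4.0.16's quasi-likelihood test was used (TMM factors, robust, group only, threshold 0.05, Benjamini-Hochberg over all tested genes) in R 4.3.3. The factors lay at 0.913 to 1.01 (D) and 1.03 to 1.05 (M). The biological coefficient of variation was 12.4%. Every pair of replicates was further apart than sampling allows (chi-square of 6.52 to 67.7 per gene), so none was treated as a second deposit of the same library, which does not show that they are independent animals. CPM values use TMM-scaled library sizes. Precision is limited by the spread between libraries more than by their depth.

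The 41 members and all lists were chosen with earlier results of these data known. Values per library were given for called members without overlap and with an absolute log2 fold change of at least 0.5 and for the member of lowest p in each list, and further members were added after their values were seen. Up to 3 called genes of lowest p were named per partner list and up to the 2 most abundant per marker list detailed; other macrophage markers and which marker lists to detail were chosen after their values were seen. Some genes that this rule names are not reported here. Replicate numbers pair the groups by a rule of correlated deviations (0.115, 0.131, 0.118 and 0.182 for equal numbers, -0.178 to 0.0735 for others), though the labels do not explain the numbers. The alternatives were DESeq2 1.42.0 size factors and its test, library totals, other filters, limma 3.58.1 on log2 FPKM or TPM with pseudocounts of 1 and 0.1, the most abundant transcript only, the replicate block, and libraries left out. Tested on simulated data for D against M, 4 against 4, over 12746 genes, the fit recovered 65% of 1.5-fold and 88% of 2-fold changes. That simulation changed only 100 genes at each size, while 34.7% of all tested genes were called in the data. Changes under 1.5-fold, as in all called members but Hdac7, were not simulated. The recovery in these data is therefore not known from it.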

Additional observations from a re-analysis of the deposited data

Results flagged for a closer look

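In 4 of 82 groups of 4 libraries (4.88%, where chance gives about 1 in 20), the highest or lowest library stood apart from the other 3. Dnmt3a was 56.8 CPM in D replicate 1 against 47.6 to 48.0 in the other D libraries. Suv39h1 was 89.1 CPM in D replicate 1 against 76.6 to 77.5. Kat2a was 50.8 CPM in M replicate 2 against 57.6 to 58.5 in the other M libraries, and Kdm2a 165 CPM in M replicate 3 against 147 to 150 (149.9). Of these genes only Dnmt3a was called.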

How the results depend on the processing

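Of the 13 calls, 7 held whichever library was left out (Hdac7, Dnmt3a, Ezh2, Kdm4b, Setd1a, Kat2b and Setd7), and 4 (Hdac7, Ezh2, Setd1a and Kat2b) also held in the 12 other settings. The direction of 11 held in all of them, the exceptions being Ehmt1 and Hdac4 with the most abundant transcript only. In at least 1 setting 11 uncalled members were called, for which the share of all genes was not counted. Members higher numbered 5 (the share of all genes higher, in brackets here and below, was 17.4%), and 8 with DESeq2 size factors (18.8%). They were 9 with DESeq2's test (20.5%), the replicate block (18.8%) or without both D replicates 1 and 3 (18.2%). They were 2 with library totals (11.9%), FPKM (12.3% with either pseudocount) or TPM (12.5%). They were 1 with TPM unfiltered (7.55%) or the most abundant transcript (8.72%), and 2 to 9 with a library left out (13.2% to 22.1%). Members lower numbered 8 (17.3% of all genes were lower), and 15 with library totals (26.1%). They were 13 with FPKM (27.5% with pseudocount 1 and 27.1% with 0.1) or TPM (25.2%), and 12 with TPM unfiltered (15.7%). They were 3 with the most abundant transcript (7.73%), and 5 to 10 with a library left out (12.2% to 19.3%). All genes higher numbered 2233, and 1356 and 1351 with FPKM (pseudocount 1 and 0.1), 1460 with TPM, 1350 unfiltered and 1088 with the most abundant transcript; lower 2223, and 3346 with library totals and 964 with the most abundant transcript. The share of calls that were higher was 50.1%, 31.3% with library totals, 31.0% to 33.1% with FPKM or TPM, and 54.5% or 55.1% with DESeq2's factors or test. The replicate block ended the call of Ehmt1 and added Kdm5b, Ehmt2, Ezh1, Kdm6b, Hdac3 and Kdm2a; it changed no other member's call. The log2 fold change turned for Kmt2c, Kmt2e, Suv39h1 and Eed with library totals (-0.053, -0.091, -0.056 and -0.035), FPKM with pseudocount 1 (-0.047, -0.076, -0.065 and -0.043) or 0.1 (-0.051, -0.079, -0.068 and -0.044) and TPM with or without a filter (-0.033, -0.063, -0.052 and -0.028). It turned with DESeq2's size factors for Kdm1a 0.011, Hdac1 0.0092 and Hdac5 0.0057, with its test for Kdm1a 0.011, Hdac1 0.0092 and Hdac5 0.0059, without both D replicates 1 and 3 for Kdm5a 0.034, Hdac1 0.0013 and Setd2 0.0011, and with the most abundant transcript for Tet2 -0.22, Kmt2a 0.39, Kmt2b 0.051, Kdm1a 0.32, Kdm5a 0.11, Kdm2b 0.19, Ehmt1 0.0095, Ehmt2 0.38, Suv39h1 -0.014, Ezh1 -0.098, Crebbp 0.40 and Hdac4 -0.0051. With a library left out, uncalled members ranged across 0: Kmt2e -0.059 to 0.17, Kdm1a -0.041 to 0.042, Kdm5a -0.055 to 0.045, Crebbp -0.0804 to 0.018, Hdac1 -0.0302 to 0.0095, Hdac2 -0.14 to 0.041, Hdac5 -0.13 to 0.12 and Setd2 -0.067 to 0.043. The cause was not tested.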
